A study of Rattus norvegicus with 33 samples.

Results

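Glia of the rat dorsal root ganglion (DRG) were followed here through 10 genes, Gfap, Fabp7, Glul, Slc1a3, Gja1, Sox10, S100b, Apoe, Vim and Nes, which mark satellite glia or rise when glia become reactive. Members were the probes whose gene symbol in the platform annotation is one of these names. 9 of the 10 genes had 1 probe each, out of 13337 genes that the array measures, and all 9 were detected on all 33 arrays. Glul, the glutamine synthetase of satellite glia, was not analysed here, since no probe carries its symbol, gene ID or accession.

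All rats were female Sasco/Sprague-Dawley rats 13 weeks old, and total RNA of their DRG was hybridised to Illumina Rat Ref-12 BeadChips. Rats of the rhBMP-2/ACS group received absorbable collagen sponges (ACS) soaked in recombinant human bone morphogenetic protein-2, laid unilaterally beside the lumbar spine. The vehicle/ACS group received the sponges with vehicle alone, and the no sponge group had the surgery and no implant. Each treatment was sampled at 1, 3 and 7 days post surgery (dps), with 4 arrays per group at 1 and 7 dps and 3 at 3 dps. All 9 groups therefore carry the surgery, and no unoperated rats are among the arrays. The sponges lay on the transverse processes and not on the ganglion, and only the RNA samples of best quality were hybridised. The study describes ganglia of the implanted side for the sponge groups, and the operated side was assumed for no sponge. Values are log2 intensity after background correction and quantile normalisation, a difference is a difference of group means on that scale, and p-values are limma's, adjusted by the Benjamini-Hochberg method over all 12029 probes kept, with 0.05 as the threshold.

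Satellite glia wrap the cell bodies of sensory neurons in a closed sheath, clear glutamate and potassium from around them and are joined to each other by gap junctions. After nerve injury they are known to make more filament protein and to couple more strongly. A DRG also holds Schwann cells, which share Sox10, S100b and, in the non-myelinating kind, Gfap with satellite glia, so that none of the members marks satellite glia alone. RNA came from whole ganglia, in which fewer cells of a type and less RNA per cell cannot be told apart.

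From 10142 to 11674 probes were detected per array, and each array correlated with the others of its group at a mean of 0.985 to 0.9926. The lowest of these, 0.985, belonged to rhBMP-2/ACS replicate 3 at 3 dps, and the calls of Gfap and Nes and the counts of the gene lists at 3 dps are given also without it. Median raw intensity differed by day, at 66.7 to 97.5 on day 1, 111.3 to 143.5 on day 3 and 89.1 to 103.6 on day 7. The labels number the samples of each day in a set of codes of its own, and day and set cannot be told apart. Nothing in the labels says which arrays shared a chip.

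The promoters of the 4 members that differed between treatments at any day, Gfap, Nes, Vim and Fabp7, are shown because Gfap and Nes moved together while Fabp7 moved the other way. They are the 250 bases before the transcript start that the RefSeq table gives for each gene, 5′ to 3′ on the gene's strand, on GRCr8, at chr10:88361662-88361911 (minus strand) for Gfap, chr2:175736338-175736587 (plus strand) for Nes, chr17:81577011-81577260 (plus strand) for Vim and chr20:37669356-37669605 (plus strand) for Fabp7. The Nes and Fabp7 windows lie inside the span that RefSeq gives to the gene. Capitals mark matches on either strand to any of 8 motifs.
Gfap: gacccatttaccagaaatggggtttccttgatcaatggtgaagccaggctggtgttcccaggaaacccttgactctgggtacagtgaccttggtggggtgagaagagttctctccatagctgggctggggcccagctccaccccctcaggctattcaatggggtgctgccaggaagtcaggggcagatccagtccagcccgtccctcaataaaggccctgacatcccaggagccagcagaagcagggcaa
Nes: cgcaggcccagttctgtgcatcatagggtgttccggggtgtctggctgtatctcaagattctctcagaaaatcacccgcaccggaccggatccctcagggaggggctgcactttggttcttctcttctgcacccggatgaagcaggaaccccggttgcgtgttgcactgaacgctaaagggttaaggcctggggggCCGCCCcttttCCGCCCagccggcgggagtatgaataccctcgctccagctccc
Vim: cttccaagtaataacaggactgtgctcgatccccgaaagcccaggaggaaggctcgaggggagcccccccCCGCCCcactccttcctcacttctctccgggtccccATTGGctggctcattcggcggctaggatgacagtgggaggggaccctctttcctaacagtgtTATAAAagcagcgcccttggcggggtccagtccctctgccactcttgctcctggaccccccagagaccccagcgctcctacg
Fabp7: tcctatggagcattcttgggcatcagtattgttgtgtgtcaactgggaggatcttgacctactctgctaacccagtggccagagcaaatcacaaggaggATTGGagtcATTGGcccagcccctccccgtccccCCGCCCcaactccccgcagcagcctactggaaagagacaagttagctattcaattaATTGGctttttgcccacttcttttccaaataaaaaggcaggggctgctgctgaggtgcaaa
Both strands were searched. The TATA box was searched for as TATAAA. The CCAAT box was searched for by the letters of its name, and the GC box as GGGCGG. The other 5 motifs are those of factors named below. The Gfap window matched none of the 8. The Nes window held 2 GC boxes, 54 to 49 and 43 to 38 bases before the start. Vim had a TATA box 82 to 77 bases before the start, with a CCAAT box at 144 to 140 and a GC box at 180 to 175. Fabp7 had 3 CCAAT boxes, at 151 to 147, 142 to 138 and 61 to 57, and a GC box at 117 to 112. None of these matches overlapped another. Among all 33469 promoter windows of this length, 34% held a CCAAT box, 30.5% a GC box and 12.9% a TATA box. None of the 4 windows held the other 5. The STAT motif, TTCNNNGAA, was in 7.67% of all windows. The AP-1 motif, TGANTCA, was in 6.34% of them. The SOX motif ACAAAG was in 16.3% of all windows searched. The GC-rich element of BMP-responsive genes, spelled GGCGCC, was in 8.69%. The palindrome of nuclear factor I was in 0.0359%. No match in a window says only that these letters are not in it. Gfap and Nes, which moved together, shared none of the 8 motifs in these windows.

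Gfap, the filament protein that astrocytes and satellite glia accumulate when reactive, had the largest differences between treatments of the 9 members. At 3 dps its log2 intensity was 10.07, 10.52 and 10.95 on the rhBMP-2/ACS arrays, against 8.55, 8.09 and 8.34 on the vehicle/ACS arrays and 8.05, 7.26 and 8.97 on the no sponge arrays. All 3 rhBMP-2/ACS arrays lay above every array of either other group. Groups of 3 did not overlap for 22.8% of all probes in the comparison with vehicle/ACS and for 22.3% in that with no sponge. Gfap was 2.19 log2 units higher with rhBMP-2/ACS than with vehicle/ACS (SE 0.376, 4.55-fold, adjusted p = 0.000553) and 2.42 higher than without a sponge (SE 0.376, 5.35-fold, adjusted p = 0.000312). Vehicle/ACS and no sponge differed by 0.24 (SE 0.376, 95% CI -0.53 to 1.00, adjusted p = 0.83), and their arrays overlapped.

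At 7 dps both sponge groups stood above no sponge in Gfap, with rhBMP-2/ACS replicate 1 and no sponge replicate 1 equal to 2 decimals. Over all probes, 12.3% (rhBMP-2/ACS) and 17.1% (vehicle/ACS) had groups that did not overlap with no sponge. The values were 8.86, 9.07, 9.88 and 9.09 with rhBMP-2/ACS, 9.21, 10.42, 9.69 and 9.49 under vehicle/ACS, and 8.86, 7.73, 7.49 and 7.70 without a sponge. Vehicle/ACS was 1.76 higher than no sponge (SE 0.325, 3.38-fold, adjusted p = 0.000546) and rhBMP-2/ACS 1.28 higher (SE 0.325, 2.43-fold, adjusted p = 0.022). The rhBMP-2/ACS call was lost on leaving out 1 array, at an adjusted p of 0.119 without rhBMP-2/ACS replicate 3, and of 0.0654, 0.0829 and 0.0646 without no sponge replicates 2, 3 and 4. Between rhBMP-2/ACS and vehicle/ACS the difference was -0.47 (SE 0.325, 95% CI -1.14 to 0.19, adjusted p = 0.848), with overlapping arrays.

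At 1 dps Gfap was 10.32 ± 0.501 with rhBMP-2/ACS, 10.11 ± 0.514 with vehicle/ACS and 9.64 ± 0.309 without a sponge (SD, n = 4 each). The 4 rhBMP-2/ACS arrays, at 10, 10.03, 10.19 and 11.06, all lay above the no sponge arrays, at 9.47, 9.29, 9.83 and 9.96, but the difference of 0.68 (SE 0.325) did not pass (adjusted p = 0.791). Over all probes, 4.19% had groups that did not overlap in that comparison. The difference between rhBMP-2/ACS and vehicle/ACS itself changed with the day. It was 1.97 larger at 3 dps than at 1 dps (SE 0.497, adjusted p = 0.0439) and smaller at 7 dps than at 3 dps (difference -2.66, SE 0.497, adjusted p = 0.00181). The first of these did not pass when any 1 of 9 arrays was left out, with the highest adjusted p, 0.205, without rhBMP-2/ACS 3 dps replicate 3, while the second passed in all 22 alternatives.

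In order of group mean, Gfap fell into an upper set of 6 groups, between 10.51 ± 0.439 (rhBMP-2/ACS 3 dps) and 9.23 ± 0.446 (rhBMP-2/ACS 7 dps), and a lower set of vehicle/ACS 3 dps at 8.33 ± 0.229, no sponge 3 dps at 8.09 ± 0.853 and no sponge 7 dps at 7.95 ± 0.62. The step between the sets, 0.9, was the only one between neighbours that exceeded the pooled SD of 0.513. This order runs across days, and day cannot be told apart from the set of sample codes.

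**Figure D1:**
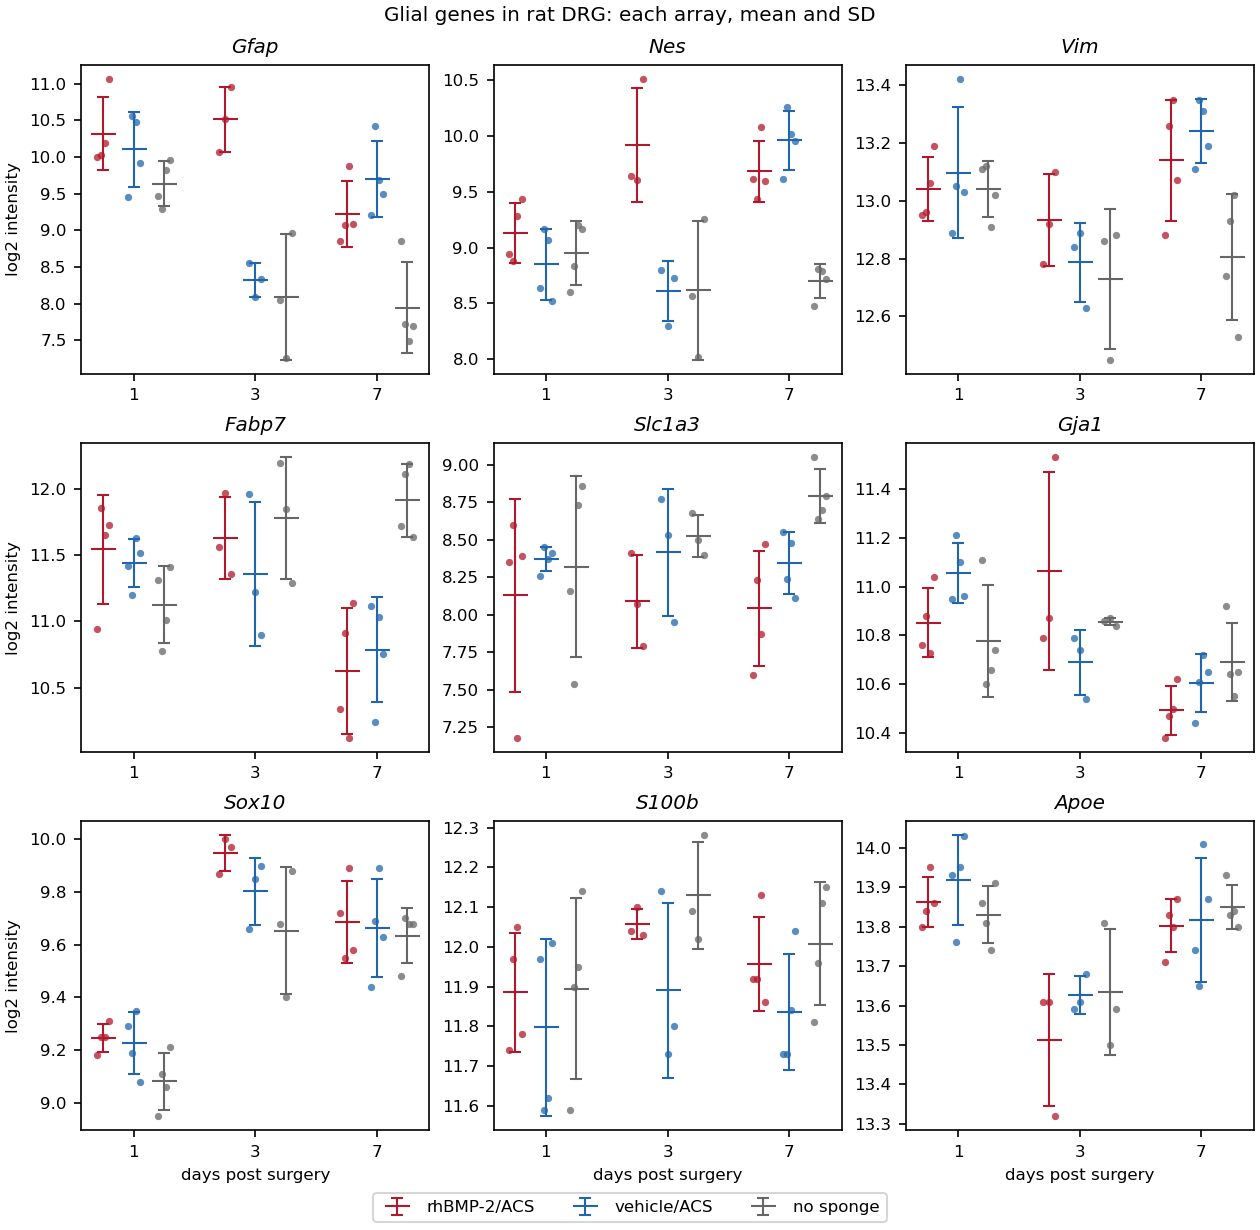
Log2 intensity (y axis, each panel with its own range) of the 9 measured genes at 1, 3 and 7 days post surgery (x axis), with points for arrays and bars for the mean and SD of rhBMP-2/ACS, vehicle/ACS and no sponge rats (n = 4 at 1 and 7 dps, n = 3 at 3 dps). Within each of these days, Gfap and Nes had higher means in rhBMP-2/ACS than in the other groups at 3 dps and in both sponge groups than in no sponge at 7 dps, where Fabp7 had lower means in both sponge groups.

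Nes, the filament nestin of neural progenitors that reactive glia and dividing cells also make, followed Gfap. At 3 dps its log2 intensity was 9.64, 9.61 and 10.51 with rhBMP-2/ACS, 8.80, 8.30 and 8.73 under vehicle/ACS, and 8.57, 8.02 and 9.26 without a sponge. The rhBMP-2/ACS arrays again lay above all 6 others, in comparisons in which the groups of 22.8% and 22.3% of all probes did not overlap. Nes was 1.31 higher than with vehicle/ACS (SE 0.249, 2.48-fold, adjusted p = 0.0014) and 1.30 higher than without a sponge (SE 0.249, 2.47-fold, adjusted p = 0.00206). The first call did not pass in 1 of 15 alternatives, and the second in 2 of 15. Vehicle/ACS and no sponge had equal means, with a difference of -0.01 (SE 0.249, 95% CI -0.51 to 0.50).

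At 7 dps the sponge groups held Nes at 9.62, 9.44, 10.08 and 9.60 (rhBMP-2/ACS) and 9.62, 10.26, 10.02 and 9.96 (vehicle/ACS), against 8.48, 8.81, 8.79 and 8.72 without a sponge. No array of either sponge group overlapped the no sponge arrays, as was so for 12.3% (rhBMP-2/ACS) and 17.1% (vehicle/ACS) of all probes. Vehicle/ACS was 1.26 higher than no sponge (SE 0.216, 2.40-fold, adjusted p = 0.000204), a call that passed in all 17 alternatives. RhBMP-2/ACS was 0.98 higher than no sponge (SE 0.216, 1.98-fold, adjusted p = 0.00746), with an adjusted p of 0.056 without rhBMP-2/ACS replicate 3. At 1 dps Nes was 9.13 ± 0.27, 8.85 ± 0.319 and 8.95 ± 0.286 with rhBMP-2/ACS, vehicle/ACS and no sponge (SD, n = 4 each), and the 3 groups overlapped. The difference between rhBMP-2/ACS and vehicle/ACS was smaller at 7 dps than at 3 dps (difference -1.59, SE 0.329, adjusted p = 0.00385). The difference between vehicle/ACS and no sponge was 1.27 larger at 7 dps than at 3 dps (SE 0.329, adjusted p = 0.0264), a contrast added after the data were seen. It did not pass without no sponge 3 dps replicate 3 (adjusted p = 0.118), vehicle/ACS 3 dps replicate 2 (0.0911), vehicle/ACS 7 dps replicate 2 (0.0612) or no sponge 7 dps replicate 1 (0.0547). For Gfap the same contrast was 1.52 (SE 0.497) and did not pass (adjusted p = 0.0816).

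Vim, the intermediate filament vimentin of fibroblasts, endothelium, macrophages and glia, moved less than Gfap and Nes. Its log2 intensity at 7 dps was 12.88, 13.26, 13.35 and 13.07 with rhBMP-2/ACS, 13.11, 13.35, 13.31 and 13.19 under vehicle/ACS, and 12.74, 12.93, 13.02 and 12.53 without a sponge. All 4 vehicle/ACS arrays stood above the no sponge arrays, whereas 1 rhBMP-2/ACS array lay among them. Vehicle/ACS and no sponge did not overlap for 17.1% of all probes. Vehicle/ACS was 0.43 higher than no sponge (SE 0.115, 1.35-fold, adjusted p = 0.0136), and rhBMP-2/ACS 0.34 higher without passing (SE 0.115, adjusted p = 0.103). The vehicle/ACS call was lost without vehicle/ACS replicate 2 (adjusted p = 0.0542), without no sponge replicate 4 (0.0712) and with medians equalised in place of quantiles (0.0607). At 3 dps the difference between rhBMP-2/ACS and vehicle/ACS was 0.15 (SE 0.132, 95% CI -0.12 to 0.42).

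**Figure D2:**
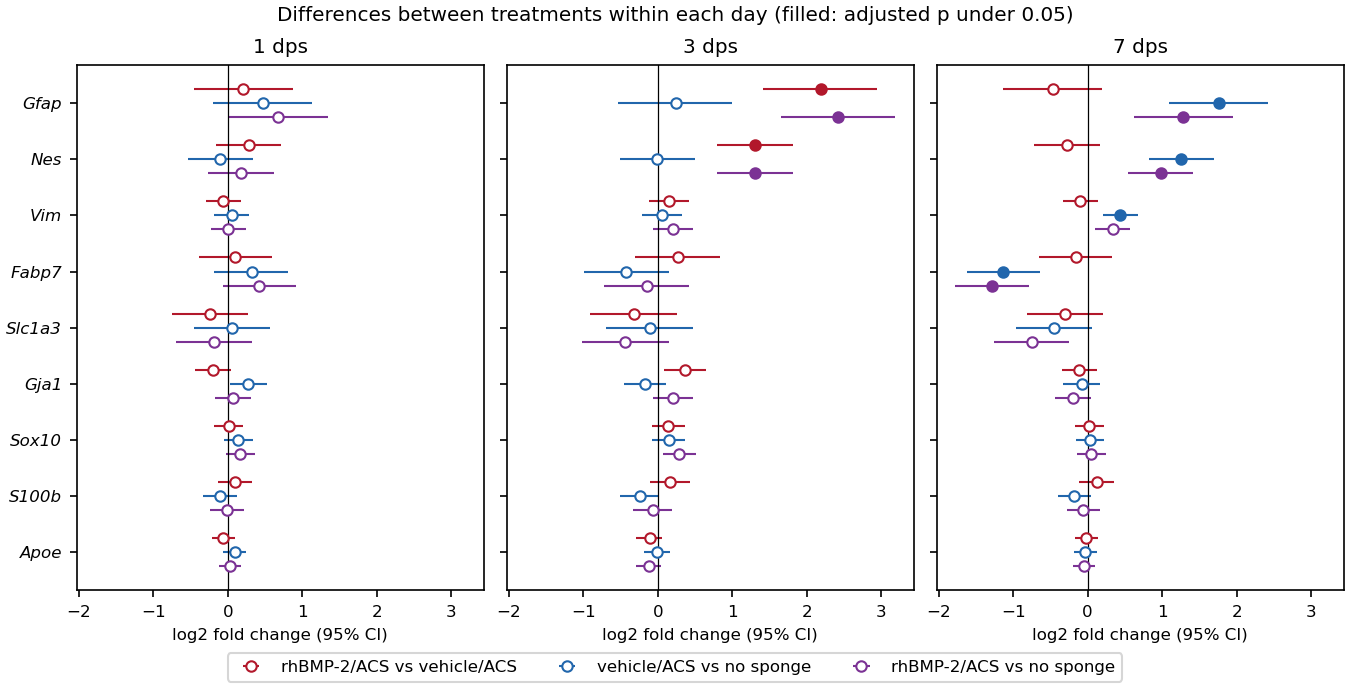
Log2 fold change (x axis) of each measured gene (y axis) for rhBMP-2/ACS against vehicle/ACS, vehicle/ACS against no sponge and rhBMP-2/ACS against no sponge at each day, with 95% confidence intervals and filled points where the adjusted p was under 0.05. Filled points are limited to Gfap and Nes at 3 dps and to Gfap, Nes, Vim and Fabp7 at 7 dps, and of these only Fabp7 lies to the left of 0.

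Fabp7, the brain fatty acid binding protein that marks satellite glia in the DRG, went the other way. At 7 dps its log2 intensity was 10.34, 10.91, 10.12 and 11.14 on rhBMP-2/ACS arrays and 11.12, 10.24, 11.03 and 10.75 on vehicle/ACS arrays, against 11.72, 12.11, 12.19 and 11.64 without a sponge. No array of either sponge group reached the lowest no sponge array. Groups did not overlap for 12.3% (rhBMP-2/ACS) and 17.1% (vehicle/ACS) of all probes in these comparisons. Fabp7 fell by 1.29 on the log2 scale with rhBMP-2/ACS (difference -1.29, SE 0.241, 2.44-fold lower, adjusted p = 0.00179) and by 1.13 with vehicle/ACS (difference -1.13, SE 0.241, 2.19-fold lower, adjusted p = 0.00241), each against no sponge. Both calls held with each array left out, over a range of -1.46 to -1.12 and of -1.25 to -0.95 across all alternatives.

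At 3 dps Fabp7 was 11.56, 11.97 and 11.36 with rhBMP-2/ACS, 11.96, 11.22 and 10.90 under vehicle/ACS, and 12.20, 11.85 and 11.29 without a sponge. These groups overlapped, and the difference between rhBMP-2/ACS and vehicle/ACS was 0.27 (SE 0.278, 95% CI -0.30 to 0.84, adjusted p = 0.59). At 1 dps the means were 11.55 ± 0.413 with rhBMP-2/ACS, 11.44 ± 0.184 with vehicle/ACS and 11.13 ± 0.287 without a sponge (SD, n = 4 each). The change in the difference between vehicle/ACS and no sponge between 3 and 7 dps, -0.71 (SE 0.368), did not pass (adjusted p = 0.299), and the change in the difference between rhBMP-2/ACS and no sponge was not tested. In order of group mean no step between neighbours exceeded the pooled SD of 0.379.

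**Figure D3:**
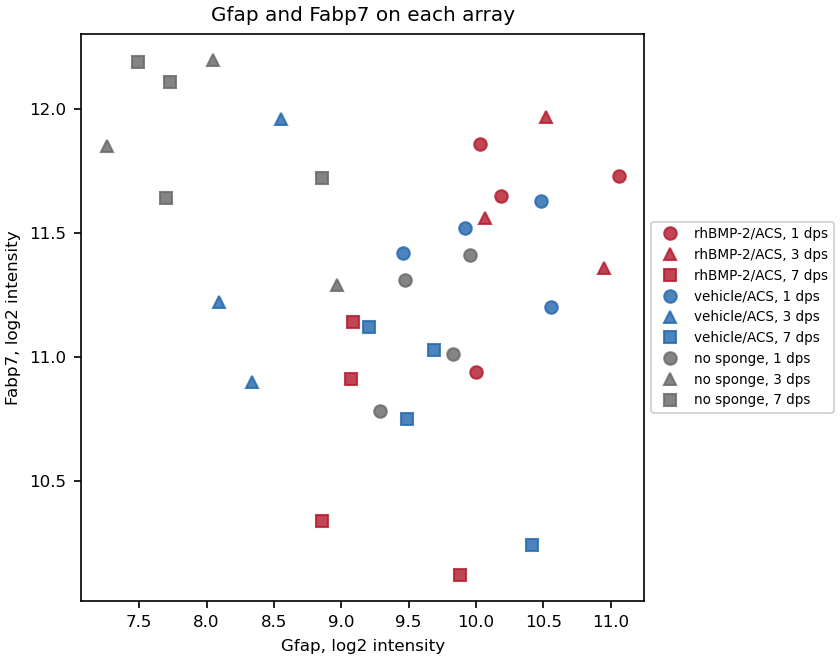
Log2 intensity of Fabp7 (y axis) against that of Gfap (x axis) on each of 33 arrays, coloured by treatment and shaped by day. The 4 no sponge arrays at 7 dps lie at low Gfap and high Fabp7, the 8 sponge arrays at 7 dps lie at lower Fabp7 and mostly higher Gfap, and the 3 rhBMP-2/ACS arrays at 3 dps have high Gfap with Fabp7 between 11.36 and 11.97.

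Slc1a3, the glial glutamate-aspartate transporter GLAST, had lower means in both sponge groups at 7 dps, but neither difference passed. At 7 dps its log2 intensity was 7.60, 8.23, 7.87 and 8.47 with rhBMP-2/ACS, 8.55, 8.24, 8.48 and 8.11 under vehicle/ACS, and 9.05, 8.64, 8.70 and 8.79 without a sponge. Neither sponge group overlapped no sponge, as was so for 12.3% and 17.1% of all probes in these comparisons. The difference from no sponge was -0.75 with rhBMP-2/ACS (SE 0.249, adjusted p = 0.0913) and -0.45 with vehicle/ACS (SE 0.249, adjusted p = 0.271).

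Apoe, the lipid carrier that satellite glia make in quantity, varied little. Its group means stood between 13.51 and 13.92. Its differences between treatments ran between -0.12 and 0.09, and none passed.

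Gja1, the connexin 43 of gap junctions between satellite glia, was 10.79, 10.87 and 11.53 with rhBMP-2/ACS at 3 dps, against 10.79, 10.74 and 10.54 under vehicle/ACS and 10.86, 10.87 and 10.84 without a sponge. The highest value belonged to replicate 3, and the other 2 rhBMP-2/ACS arrays lay close to the arrays without a sponge. The difference of 0.37 from vehicle/ACS did not pass (SE 0.137, adjusted p = 0.0775). At 7 dps Gja1 was 10.49 ± 0.1, 10.60 ± 0.119 and 10.69 ± 0.161 with rhBMP-2/ACS, vehicle/ACS and no sponge (SD, n = 4 each), and no comparison passed.

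Sox10, the transcription factor that sets the glial fate of neural crest cells, and S100b, a calcium-binding protein of Schwann cells and satellite glia, did not pass in any of the 9 treatment comparisons. Sox10 at 3 dps was 9.87, 10 and 9.97 with rhBMP-2/ACS, 9.66, 9.85 and 9.90 under vehicle/ACS and 9.68, 9.40 and 9.88 without a sponge. Its difference of 0.29 between rhBMP-2/ACS and no sponge missed the threshold (SE 0.11, adjusted p = 0.0965). At 7 dps the 3 means were 9.68 ± 0.157, 9.66 ± 0.185 and 9.63 ± 0.105, and the interval of the difference between vehicle/ACS and no sponge was -0.16 to 0.22. S100b had group means between 11.80 and 12.13, and its differences between treatments ran between -0.24 and 0.17.

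Counted over the 9 measured members, 2 were higher and 0 lower with rhBMP-2/ACS than with vehicle/ACS at 3 dps, a comparison in which 10.5% of all probes passed (5.98% higher and 4.56% lower). Against no sponge at 3 dps, rhBMP-2/ACS also had 2 higher and 0 lower, with 7.55% of all probes passing (4.21% higher and 3.33% lower). Both counts of members stayed at 2 without rhBMP-2/ACS replicate 3, while 238 probes in place of 1268 passed between rhBMP-2/ACS and vehicle/ACS, and 147 in place of 908 between rhBMP-2/ACS and no sponge. At 7 dps vehicle/ACS had 3 higher and 1 lower than no sponge, with 10.2% of all probes passing (6.22% higher and 3.96% lower), and rhBMP-2/ACS had 2 higher and 1 lower, with 3.63% passing (2.59% higher and 1.04% lower). Vehicle/ACS against no sponge at 3 dps called 0 members and 0.341% of probes. At 1 dps 0 members and 0% of probes passed in any of the 3 comparisons, and likewise between rhBMP-2/ACS and vehicle/ACS at 7 dps. The change of the rhBMP-2/ACS difference between 1 and 3 dps called 1 member higher, with 1.16% of probes passing (0.948% higher), and that between 3 and 7 dps called 2 lower, with 6.9% passing (2.34% higher and 4.56% lower). The added change of vehicle/ACS against no sponge called 1 higher, with 3.75% passing (2.86% higher). Groups did not overlap for 0 members between rhBMP-2/ACS and vehicle/ACS at 1 dps and 0 between vehicle/ACS and no sponge at 1 dps, with 2.78% and 2.61% of probes. The methods' t-test, for which unequal variances and Benjamini-Hochberg adjustment at 0.05 were assumed, called 0 members at 3 dps and, at 7 dps, Nes alone, between vehicle/ACS and no sponge. At the threshold of fold change and p that the methods name, with p taken as unadjusted, the same test called Gfap and Nes in both comparisons of rhBMP-2/ACS at 3 dps (2.35% of all probes against vehicle/ACS and 2.24% against no sponge). At 7 dps it called Gfap, Nes and Fabp7 for vehicle/ACS against no sponge (2.59% of all probes), and these and Slc1a3 for rhBMP-2/ACS against no sponge (1.69%). At an unadjusted p under 0.05, the 4 treatment comparisons with 0% called held 456 probes (rhBMP-2/ACS against vehicle/ACS), 413 (vehicle/ACS against no sponge) and 751 (rhBMP-2/ACS against no sponge) at 1 dps and 777 at 7 dps, and the methods' t-test with that adjustment called 0 in each. The median difference of the members was 0.17 against -0.03 between rhBMP-2/ACS and vehicle/ACS at 3 dps and -0.03 against -0.04 for vehicle/ACS against no sponge at 7 dps. The 2 comparisons with no sponge on a day share its arrays, and both comparisons of rhBMP-2/ACS share those of rhBMP-2/ACS.

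Without a sponge, members also differed between days, and day cannot be told apart from the set of sample codes. Gfap was 9.64 ± 0.309 at 1 dps (n = 4), 8.09 ± 0.853 at 3 dps (n = 3) and 7.95 ± 0.62 at 7 dps (n = 4), with a difference of -1.54 at 3 dps (SE 0.352, adjusted p = 0.00176) and of -1.69 at 7 dps (SE 0.325, adjusted p = 9.65e-05) from 1 dps. Sox10 was 9.08 ± 0.107, 9.65 ± 0.241 and 9.63 ± 0.105 on these days, and was higher by 0.57 (SE 0.103, adjusted p = 0.000148) and 0.55 (SE 0.095, adjusted p = 2.53e-05). Fabp7 was 0.79 higher at 7 dps than at 1 dps (SE 0.241, adjusted p = 0.008), and Apoe 0.21 higher at 7 dps than at 3 dps (SE 0.0799, adjusted p = 0.0421), a call that was lost without a filter on detection or with array weights. In these comparisons 22.2% of all probes passed between 3 and 1 dps (11.7% higher and 10.5% lower), 29.5% between 7 and 3 dps (15.5% higher) and 48.5% between 7 and 1 dps (26.2% higher and 22.3% lower). With medians equalised in place of quantiles, the median of all probes itself shifted by 0.16, 0.18 and 0.30 in these comparisons. Under that scaling, and relative to that shift, Gfap differed from 1 dps by -1.34 at 3 dps and -1.48 at 7 dps. Sox10 differed by 0.72 and 0.91, Fabp7 by 1.02 and 1.59, and Apoe by 0.79 between 3 and 7 dps. The sign of Vim turned, from -0.31 and -0.23 on the reported scale to 0.23 and 0.81 relative to the shift, and Gja1 at 7 dps turned to 0.54.

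The other genes of glia were read from lists chosen with results of these data already known. Of 35 other satellite glia genes, such as Entpd2, Lgi4, Hes5 and Ttyh1, 28 had a probe and 21 were kept. Kcnj10, the potassium channel of satellite glia, was among the 7 not kept. Between rhBMP-2/ACS and vehicle/ACS at 3 dps, 4 of the 21 rose and 1 fell, with a median difference of 0.09 against -0.03 over all probes. In that comparison 5.98% of all probes passed as higher and 4.56% as lower. Metrn, a secreted factor of glia, was 0.94 higher (SE 0.188, adjusted p = 0.00218), Atp1b2, a subunit of the sodium pump of glia, 0.68 higher (SE 0.192, adjusted p = 0.0225), and Lgi4, a secreted protein that Schwann cells need for myelination, 0.62 higher (SE 0.133, adjusted p = 0.00345). Dbi, the acyl-CoA binding protein that glia secrete, had a difference of -0.32 (SE 0.0808, adjusted p = 0.0109). Without rhBMP-2/ACS replicate 3, 2 rose and 0 fell.

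At 7 dps 4 of the 21 rose and 4 fell with vehicle/ACS against no sponge, with a median of -0.02 against -0.04 over all probes. Metrn was 0.79 higher (adjusted p = 0.00161) and Lgi4 0.45 higher (adjusted p = 0.00984), whereas Hes5, a Notch target of glial precursors, differed by -1.28 (adjusted p = 0.000116) and Ttyh1, a chloride channel of glia, by -0.47 (adjusted p = 0.000622). With rhBMP-2/ACS against no sponge Hes5 differed by -1.12 (adjusted p = 0.00178) and Ttyh1 by -0.46 (adjusted p = 0.00205), Metrn by 0.81 and Lgi4 by 0.48. With vehicle/ACS, the 4 higher and 4 lower of 21 stood against 6.22% and 3.96% of all probes. The number lower was 2 without vehicle/ACS replicate 2 or without no sponge replicate 2, 3 or 4.

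Of 36 reactive glia genes 32 had a probe and 25 were kept, while Il6, Lif, Socs3 and Gdnf were among the 7 detected on at most 6 arrays. Between rhBMP-2/ACS and vehicle/ACS at 3 dps, 10 of the 25 rose and 0 fell, with a median of 0.29 against -0.03 over all probes. Of all probes, 5.98% passed as higher. A2m, the plasma protease inhibitor alpha-2-macroglobulin, was 2.63 higher (SE 0.336, adjusted p = 5.52e-05), Emp1, an epithelial membrane protein, 2.03 higher (SE 0.318, adjusted p = 0.000302), Cp, the copper carrier ceruloplasmin, 1.60 higher (SE 0.278, adjusted p = 0.000643) and Clcf1, a cytokine of the CNTF receptor, 0.95 higher (SE 0.156, adjusted p = 0.00044). At 7 dps 11 of the 25 rose and 0 fell with vehicle/ACS against no sponge, with a median of 0.43 against -0.04 over all probes, and 7 rose with rhBMP-2/ACS. Of all probes, 6.22% passed as higher with vehicle/ACS and 2.59% with rhBMP-2/ACS. A2m was 3.03 higher with vehicle/ACS (adjusted p = 3.2e-08) and Emp1 1.58 higher (adjusted p = 0.000265), but Clcf1, at 0.29, did not pass (adjusted p = 0.176). The counts fell to 6 at 3 dps without rhBMP-2/ACS replicate 3 and to 4 at 7 dps for rhBMP-2/ACS without its replicate 3. Fibroblasts and macrophages also make Timp1, which rose in both comparisons.

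Markers of other cells moved in the same comparisons. Of all probes, 5.98% passed as higher and 4.56% as lower between rhBMP-2/ACS and vehicle/ACS at 3 dps. Between rhBMP-2/ACS and vehicle/ACS at 3 dps, 7 of 12 macrophage genes rose (C1qb by 1.57, adjusted p = 0.000936), 10 of 13 fibroblast and matrix genes (Fn1 by 2.54, adjusted p = 0.000496) and 4 of 8 endothelial genes (Vwf by 1.29, adjusted p = 0.000996), and 4 of 13 sensory neuron genes fell (Snap25 by 0.42, difference -0.42, adjusted p = 0.0105). Without rhBMP-2/ACS replicate 3 these counts were 3, 2, 2 and 0. The macrophage count was also 4 without vehicle/ACS replicate 1, the fibroblast count 4 and 5 without vehicle/ACS replicates 1 and 2, and the neuron count 1 without vehicle/ACS replicate 2. Gfap and Nes themselves still passed without rhBMP-2/ACS replicate 3, at 1.97 (adjusted p = 0.0134) and 1.01 (adjusted p = 0.035) over vehicle/ACS and at 2.20 (adjusted p = 0.00737) and 1.01 (adjusted p = 0.0439) over no sponge. At 7 dps, with vehicle/ACS against no sponge, 7 of 12 macrophage and 9 of 13 fibroblast genes rose, 0 of 8 endothelial genes passed, and 1 of 13 neuron genes fell. In that comparison 6.22% of all probes passed as higher and 3.96% as lower.

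In mean level over its 12 genes, the macrophage list stood at 6.93 to 7.73 with rhBMP-2/ACS, 6.08 to 6.82 with vehicle/ACS and 6.41 to 6.89 without a sponge at 3 dps, and at 6.92 to 7.15, 7.30 to 7.44 and 6.34 to 6.55 in these groups at 7 dps. The fibroblast list stood at 9.31 to 10.24, 8.4 to 9.33 and 8.81 to 9.21 at 3 dps, and at 9.33 to 9.83, 9.51 to 10.16 and 8.66 to 9.02 at 7 dps. The sensory neuron list stood at 11.11 to 11.26, 11.28 to 11.37 and 11.33 to 11.36 at 3 dps, and at 11.25 to 11.38, 11.27 to 11.35 and 11.39 to 11.45 at 7 dps. At 3 dps rhBMP-2/ACS had the highest mean of Gfap, of Nes and of the macrophage, fibroblast, endothelial and Schwann cell myelin lists. Vehicle/ACS and no sponge at 3 dps had means of 8.33 and 8.09 for Gfap and of 8.61 and 8.62 for Nes. Their means were 6.42 and 6.62 for the macrophage list and 8.78 and 9.07 for the fibroblast list. Arrays of these groups overlapped in each of these measures. At 7 dps vehicle/ACS was highest and no sponge lowest in mean Gfap, Nes, macrophage, fibroblast, endothelial and Schwann cell myelin levels. The part of other cells in the differences of the members was not tested. Of 13 macrophage genes with a probe 12 were kept, all but Ptprc, a defining marker of leukocytes, which was detected on at most 4 arrays.

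Of 8 kept Schwann cell myelin genes, 2 rose with rhBMP-2/ACS relative to vehicle/ACS at 3 dps, and the same 2 rose at 7 dps with vehicle/ACS against no sponge. They were Gldn, which builds nodes of Ranvier (2.71, adjusted p = 0.000482, and 2.15, adjusted p = 0.000416), and Egr2, the transcription factor of myelination (1.11, adjusted p = 0.000496, and 1.37, adjusted p = 1.26e-06). The myelin protein gene Mbp had a difference of -0.40 at 3 dps (adjusted p = 0.104) and of 0.06 at 7 dps (adjusted p = 0.835). The number of these genes that rose at 3 dps was 2 also without rhBMP-2/ACS replicate 3. In these comparisons 5.98% (3 dps) and 6.22% (7 dps) of all probes passed as higher. Of 8 genes of spinal cord glia, 6 were not kept, among them Mog, Mobp, Opalin and Aqp4, each detected on at most 3 of 33 arrays, so defining markers of spinal cord tissue were at or near background. Hapln2 was 1 of the 2 kept and had a difference of -0.88 at 3 dps (adjusted p = 0.00791), and 0 of the 2 passed without rhBMP-2/ACS replicate 3. None of 5 kept skeletal muscle genes passed at 3 dps, and 1, Tnnt3 (0.89, adjusted p = 0.024), rose with rhBMP-2/ACS against no sponge at 7 dps. In the latter comparison 2.59% of all probes passed as higher. The probe of the neuronal peptide gene Calca was detected on 0 arrays and was left out, whereas 13 of 14 neuron genes on the array were kept, at a mean level above 11 in every group.

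**Figure D4:**
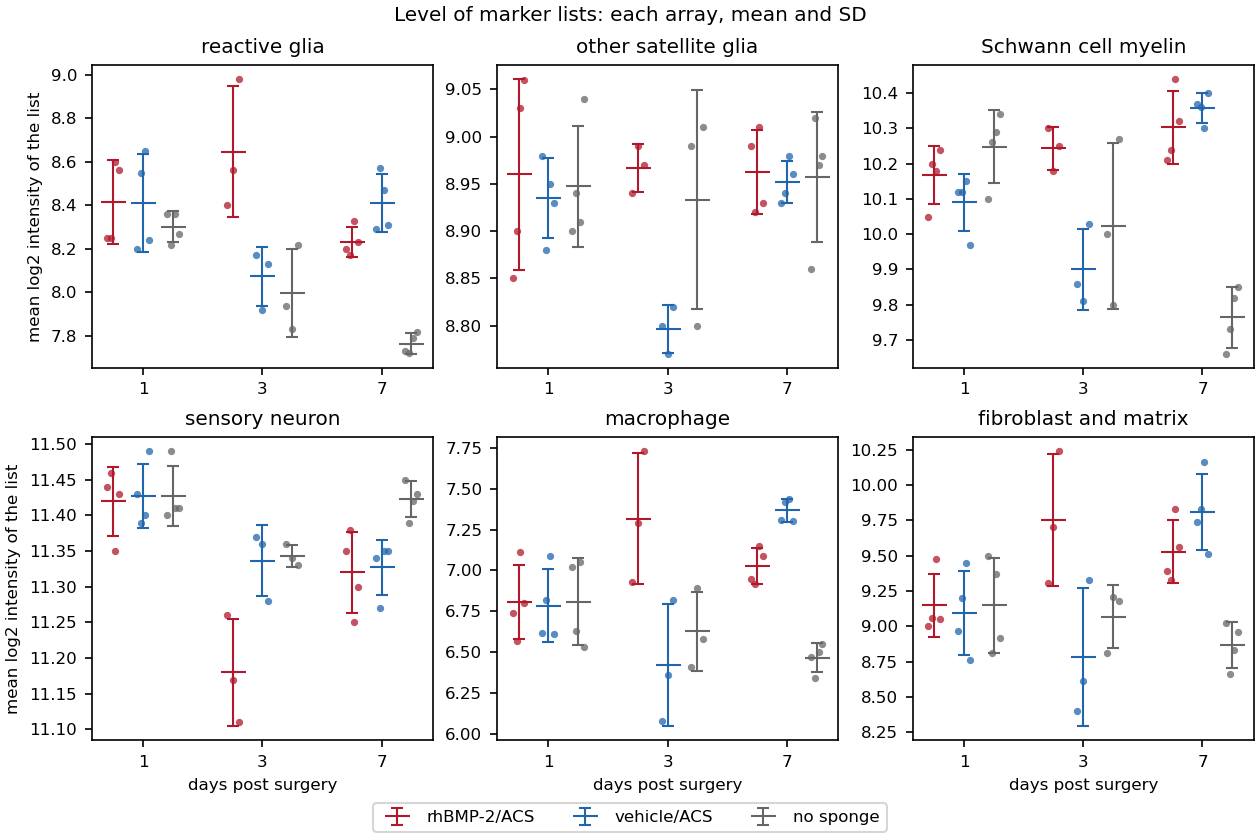
Mean log2 intensity over the kept genes of 6 lists (y axis, each panel with its own range) at 1, 3 and 7 days post surgery (x axis), with points for arrays and bars for the mean and SD of each treatment (n = 4 at 1 and 7 dps, n = 3 at 3 dps). Within each of these days, the reactive glia, macrophage, fibroblast and Schwann cell myelin lists shared a pattern. Their means were higher in rhBMP-2/ACS than in the other groups at 3 dps. At 7 dps their means were higher in both sponge groups than in no sponge. The sensory neuron list had its lowest group mean in rhBMP-2/ACS at 3 dps.

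Across the 33 arrays, with the mean of each day taken off, Gfap and Nes had a Pearson r of 0.90, Gfap and Vim of 0.65 and Nes and Vim of 0.68. Fabp7 was related to Slc1a3 at 0.52 and ran against Nes at -0.47 and Gfap at -0.37. These arrays share days and treatments, so r follows the group differences above and is given as a description. With the group means taken off instead, r was 0.72 for Gfap and Nes, 0.50 for Nes and Vim, 0.63 for Nes and Sox10 and 0.41 for Fabp7 and Slc1a3. It was -0.27 for Fabp7 and Gfap, -0.31 for Fabp7 and Nes, 0.12 for Fabp7 and Vim and 0.12 for Slc1a3 and Gfap. Within groups, arrays with more Gfap had more Nes too, while Fabp7 ran against Gfap and Nes less closely than with the day means taken off.

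**Figure D5:**
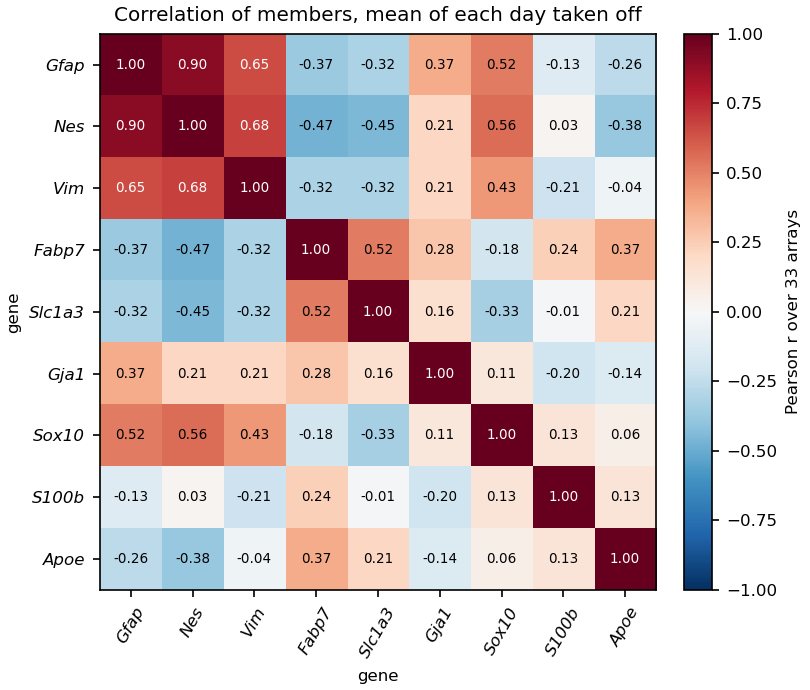
Pearson r between each pair of the 9 measured genes (both axes) over 33 arrays, with the mean of all arrays of the same day taken off. Gfap, Nes and Vim form a block of 0.65 to 0.90, while Fabp7 and Slc1a3 are positive with each other and negative with all 3.

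With the mean of each day taken off, Gfap followed the level of the reactive glia list at 0.90 and Nes at 0.94, the macrophage list at 0.72 and 0.77, the fibroblast list at 0.72 and 0.76, and the sensory neuron list at -0.77 and -0.83. With the Schwann cell myelin list, which holds Gldn, r was 0.69 for Gfap and 0.85 for Nes. With the endothelial list it was 0.66 and 0.68, and with the other satellite glia genes 0.33 and 0.47. Fabp7 ran against the macrophage list at -0.45 and the Schwann cell myelin list at -0.61 and was positive with the sensory neuron list at 0.39. S100b had an r of -0.24 with the macrophage list and of 0.54 with the other satellite glia genes.

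Among all kept genes, those most like Gfap over the 33 arrays, again with day means taken off, were Tnfrsf12a (r = 0.932), the receptor of the cytokine TWEAK, then Ybx3 (0.911), Ifitm3 (0.907), Tmem123 (0.906) and Emp1 (0.905). Tnfrsf12a was 1.44 higher with rhBMP-2/ACS than with vehicle/ACS at 3 dps (SE 0.276, adjusted p = 0.0014) and 1.26 higher with vehicle/ACS than without a sponge at 7 dps (SE 0.239, adjusted p = 0.000739). Those most like Nes were Gldn (0.957), Col18a1 (0.95), Prrg4 (0.942), Hspa2 (0.935) and Lyar (0.932). Col18a1, a basement membrane collagen, was 1.87 higher at 3 dps (SE 0.288, adjusted p = 0.000263) and 2.04 higher at 7 dps (SE 0.25, adjusted p = 2.11e-06) in the same 2 comparisons.

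Fabp7 had no close likeness, with Cx3cl1 (0.713), Rnaseh1 (0.68), Ttyh1 (0.671), Adra1b (0.661) and Mcee (0.66) nearest. Cx3cl1, the fractalkine of sensory neurons, had a difference of -1.15 with rhBMP-2/ACS (SE 0.167, adjusted p = 8.14e-05) and -1.12 with vehicle/ACS (SE 0.167, adjusted p = 4.06e-05) from no sponge at 7 dps. Vim was nearest to P4hb (0.77), Cadm4 (0.766), Bak1 (0.761), Kif11 (0.759) and Tnfrsf12a (0.748). Cadm4, an adhesion molecule of Schwann cells, was 1.07 higher with vehicle/ACS than without a sponge at 7 dps (SE 0.147, adjusted p = 1.26e-05).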

How the data were processed

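DRG total RNA was measured on 33 BeadChip arrays in 9 groups. For each of 22523 probes the authors deposited the mean bead intensity, exported from GenomeStudio (version not given in the sources used here), without background subtraction or normalisation. The detection p-value that the authors deposited beside each intensity compares it with negative control beads. A second deposited table holds the authors' background-subtracted, quantile-normalised intensities and was used as an alternative, with values below 8 set to 8 before log2. Per the labels, replicates are separate samples, and the study describes RNA of 1 rat per array for both sponge groups at all days and for no sponge at 1 and 3 dps, which was assumed also for no sponge at 7 dps. 0 columns of sample values were left unused.

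Intensities were corrected and quantile normalised with neqc of limma 3.58.1 in R 4.3.3 (offset 16, with the negative controls taken through the detection p-values) and taken to log2. A probe was kept if, in any group, 75% or more of the arrays had a detection p under 0.05 (12029, of which 8691 carry a symbol, for 8526 genes). Of all probes 13793 had 1 symbol and 8730 none. A linear model of the 9 groups gave 16 contrasts (lmFit, eBayes with a trend), adjusted by Benjamini-Hochberg within each. Where a gene had several kept probes, the brightest stood for it. Named beside the members are up to 4 genes per list with the lowest p at 3 dps between rhBMP-2/ACS and vehicle/ACS, and for each member called between treatments the 5 genes with the highest r. Genes named outside this rule, such as Hes5, Ttyh1, Kcnj10, Mog and Ptprc, were chosen after their values were seen. The model was tested on simulated data. Alternatives were no background subtraction, medians equalised in place of quantiles, offset 50, the authors' table, no filter on detection, array weights, fits of the compared groups alone, a t-test, a replicate block, and each array left out. The t-test, with unequal variances, was chosen here, since the paper names none for the arrays. It was run with Benjamini-Hochberg adjustment and at the methods' threshold of fold change and p. Members and lists were chosen with earlier results of these data known. The number of arrays limits the precision. The limma p-values set a difference of group means against the spread between arrays within the 9 groups. Figures were drawn with Python 3.11.15.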

Additional observations from a re-analysis of the deposited data

Results flagged for a closer look

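Sox10 without a sponge at 7 dps was flagged for 1 array far from the others, replicate 1 at 9.48, against 9.70, 9.68 and 9.68 on the other 3. Of 54 groups of 4 arrays tested over the members, 1 was flagged, and chance flags about 1 in 20.

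For Gfap, the difference between rhBMP-2/ACS and vehicle/ACS itself differed between days, by 1.97 for 3 dps minus 1 dps (adjusted p = 0.0439) and by -2.66 for 7 dps minus 3 dps (adjusted p = 0.00181). For Nes it differed by -1.59 for 7 dps minus 3 dps (adjusted p = 0.00385), and the difference between vehicle/ACS and no sponge differed by 1.27 for 7 dps minus 3 dps (adjusted p = 0.0264). The Gfap change of 1.97 did not pass in 12 of 22 alternatives. The Nes change of 1.27, a contrast added after the data were seen, did not pass in 4 of 22. At 3 dps the groups had 3 arrays each.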

How the results depend on the processing

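Of 298 counts of called members over all alternatives, 257 stayed within 1.5 times the reported count. Comparisons with a reported count of 0, such as those at 1 dps, are included and stayed wherever 0 was found again. Of 267 fold changes of members called between treatments, or in a change of such a difference between days, 232 passed, 35 did not, and 0 changed sign. Differences over time without a sponge are not among these, and some of them turned sign with medians equalised, those of Vim and Gja1 included. The cause of the changes was not tested. The t-test with Benjamini-Hochberg adjustment called 0 members at 3 dps between rhBMP-2/ACS and vehicle/ACS, 0 at 3 dps between rhBMP-2/ACS and no sponge, 1 for vehicle/ACS against no sponge at 7 dps, 0 for rhBMP-2/ACS against no sponge at 7 dps, and 0 without a sponge for 3 against 1 dps and for 7 against 3 dps. At the methods' own threshold, added after the data were seen, it called 1 without a sponge for 3 against 1 dps and 0 for 7 against 3 dps. Fitting the compared groups alone called 1 for rhBMP-2/ACS against no sponge at 3 dps, 0 for the change of the rhBMP-2/ACS difference between 1 and 3 dps, and 0 for 7 against 3 dps without a sponge. With medians equalised, that change called 0, and the time comparisons without a sponge called 6 (3 against 1 dps), 5 (7 against 3 dps) and 8 (7 against 1 dps). Without a filter on detection the change called 0 and 7 against 3 dps called 0. With array weights 7 against 3 dps called 0 and the added change of vehicle/ACS against no sponge called 2.

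Leaving out each array gave 1 to 4 members for rhBMP-2/ACS against no sponge at 7 dps, 0 to 2 for the change of the rhBMP-2/ACS difference between 1 and 3 dps, 0 to 1 for 7 against 3 dps without a sponge, and 0 to 2 for the added change. For replicates of one number, the correlations of their deviations ran from -0.181 to 0.244, and 6 of 33 pairs were over 0.1. At 3 dps they ran from -0.0356 to 0.204. With no reference for such correlations, these values cannot decide whether replicates of one number shared more than the number. With the replicate block, the change between 1 and 3 dps called 2 and 7 against 3 dps called 0, and no other count left its range.

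With medians equalised, all probes split into 337 higher and 136 lower for rhBMP-2/ACS against no sponge at 3 dps (507 and 401 reported), 763 and 188 for vehicle/ACS against no sponge at 7 dps (748 and 476), 431 and 48 for rhBMP-2/ACS against no sponge at 7 dps (312 and 125), and 44 and 2 for the change between 1 and 3 dps (114 and 26). Without a sponge the split was 3551 and 584 for 3 against 1 dps (1409 and 1260), 4131 and 1348 for 7 against 3 dps (1859 and 1686) and 5973 and 1659 for 7 against 1 dps (3150 and 2688). Since each member had 1 probe, the alternative on several probes of a gene was not run, and the t-test was not run for changes between days.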
